A study of Caenorhabditis elegans with 2 samples.

Results

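The intervals described here are those that the deposited list places on the arms of chromosome V of the nematode Caenorhabditis elegans, taken as every row that starts below 6 Mb (left arm) or at 17 Mb and beyond (right arm) in the list's own numbering. They number 187 on the left arm and 91 on the right arm, 278 of the 4818 intervals in all (5.77%). The 519 intervals between the arms served for comparison. The last interval inside the left limit started at 5943126, over syf-3, and the next one outside at 6016040, over the proteasome gene rpt-2. On the other side the last interval outside started at 16926963 and the first inside at 17274958, over K10G4.10.

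The material was total RNA of untreated N2 worms, the wild-type laboratory strain, grown at mixed stages on plates with OP50 bacteria. Each transcript had been amplified by RACE (rapid amplification of cDNA ends), between its own forward primer and an oligo-dT primer, then cloned in bacteria. Inserts of 6432 clone pools were amplified again and sequenced together by 454. The labels describe another run, of barcoded clones picked from the same pools, which was not analysed here; whether its reads entered the list is not stated. There is 1 list and no replicate, so the values carry no replicate error, no difference between the arms and the centre was tested, and the number of reads behind an interval is unknown. Brackets after shares and medians hold exact 95% intervals, which cover counting error only.

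The 3′ untranslated region (3′ UTR) is the part of a messenger RNA that follows the stop codon and ends at the poly(A) tail, and it carries sites for microRNAs and RNA-binding proteins that act on translation and stability. Its end is set by cleavage and polyadenylation of the transcript. In this worm the arms of the autosomes recombine more than the centres, and the arms of chromosome V are known for large clusters of chemoreceptor, nuclear receptor and F-box genes that arose by duplication. Many chemoreceptor genes are transcribed in a few neurons only.

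Genes could be named along both arms once the list's numbering had been compared with that of the current annotation, assembly WBcel235. The difference between them, found from where the 5′ edges of intervals lay against annotated stop codons, stayed constant over long stretches and changed in steps. Added to a position of the list, it gives the current one. It was -1 nt up to the interval that ended at 3634672, 17 nt from 3701284 to beyond the left arm, and 38 nt from the start of the right arm up to 19641468. Between 19641468 and 19709523 it stepped by 4573 nt, to 4611 nt, and stayed there to the last interval, which ended at 20902889. Y43F8C.7 was the last gene named before this step and Y43F8C.16 the first after it. Of the 41 intervals past the step, 25 had their 5′ edge at a stop codon with 4611 nt, 0 with 38 nt and 0 without any correction. These counts describe the fit, which chose each value by such edges. It placed no further step in the stretch past this one. All coordinates below are on chromosome V in the list's own numbering, for which no source used here names a build, and the correction was used only to find the gene.

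On the left arm 147 of 1371 annotated protein-coding genes had an interval at their 3′ end (10.7%, 9.13 to 12.5), on the right arm 63 of 755 (8.34%, 6.47 to 10.6), and in the centre 394 of 2868 (13.7%, 12.5 to 15.1). The share differed between 1 Mb windows of the same arm. Next to the centre, the left windows from 5 to 6 Mb and from 4 to 5 Mb had 16.1% (35 of 217 genes) and 15.9% (37 of 232). Further out, the share was 8.43% from 3 to 4 Mb (22 of 261), 4.17% from 2 to 3 Mb (11 of 264), 12.7% from 1 to 2 Mb (22 of 173) and 8.93% in the first 1 Mb (20 of 224), so it did not change in 1 direction along the left arm. On the right arm the window next to the centre had 3.81% (8 of 210), and the following ones had 6.99% (13 of 186), 10.9% (20 of 183) and 12.5% (22 of 176) towards the chromosome end. The set of genes that had a primer is unknown, so a share of annotated genes mixes the choice of targets with their recovery.

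**Figure D1:**
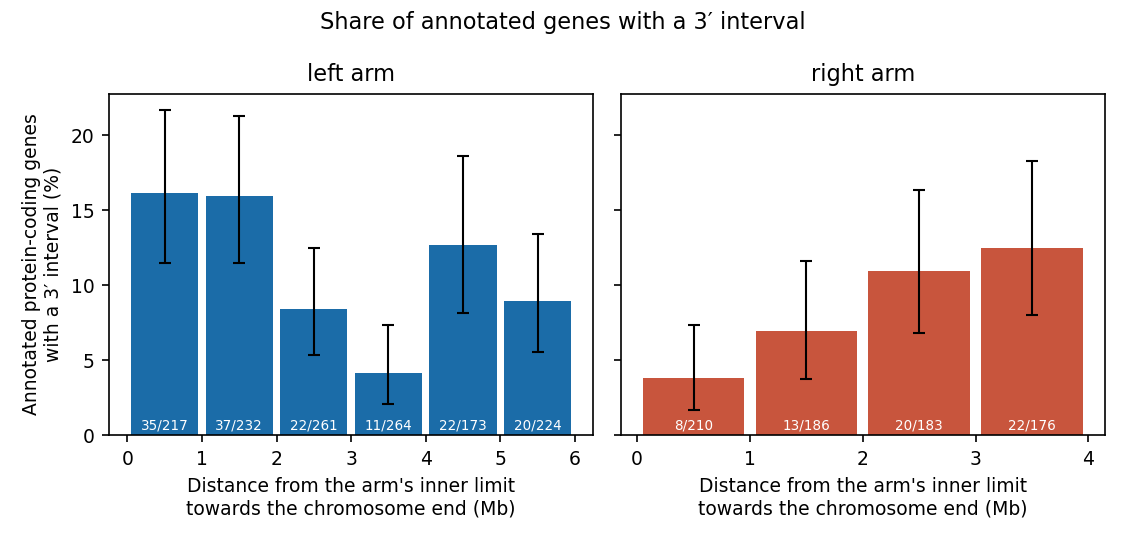
Share of annotated protein-coding genes with an interval at their 3′ end (vertical axis, %) in 1 Mb windows, by distance in Mb from the arm's inner limit towards the chromosome end; bars give the share, black lines the exact 95% interval, and white figures genes with an interval over annotated genes. The left arm is highest next to the centre (16.1%) and lowest at 3 to 4 Mb from the limit (4.17%), whereas the right arm goes from 3.81% next to the centre to 12.5% at the chromosome end.

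A smaller share of annotated genes had a 3′ UTR in the annotation on the arms than in the centre, with 927 of 1371 (67.6%) on the left arm, 513 of 755 (67.9%) on the right arm and 2221 of 2868 (77.4%) in the centre. Among genes with an annotated 3′ UTR, 15.2% had an interval on the left arm (141 of 927, 13.0 to 17.7), 11.9% on the right arm (61 of 513, 9.22 to 15.01) and 17.4% in the centre (387 of 2221, 15.9 to 19.1). Among those without one, the shares were 1.35% (6 of 444), 0.826% (2 of 242) and 1.08% (7 of 647). No source used here says whether the annotation drew on these clones, so these shares and the comparisons with annotated ends below may not be independent.

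Intervals of the left arm measured 96 to 611 nt with a median of 177 nt (162 to 191), and those of the right arm 99 to 451 nt with a median of 157 nt (141 to 187). The central median was 180 nt (168 to 190), and its middle 50% ran from 135 to 260.5 nt, against 137.5 to 243.5 nt on the left and 124 to 234.5 nt on the right arm. Neighbours lay a median of 18327 nt apart on the left arm (12977 to 23634), 26665.5 nt on the right arm (17122 to 36218) and 13065.5 nt in the centre (10669 to 15435). Among intervals given to a gene, as described below, the median was 177 nt on the left and 171 nt on the right arm.

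**Figure D2:**
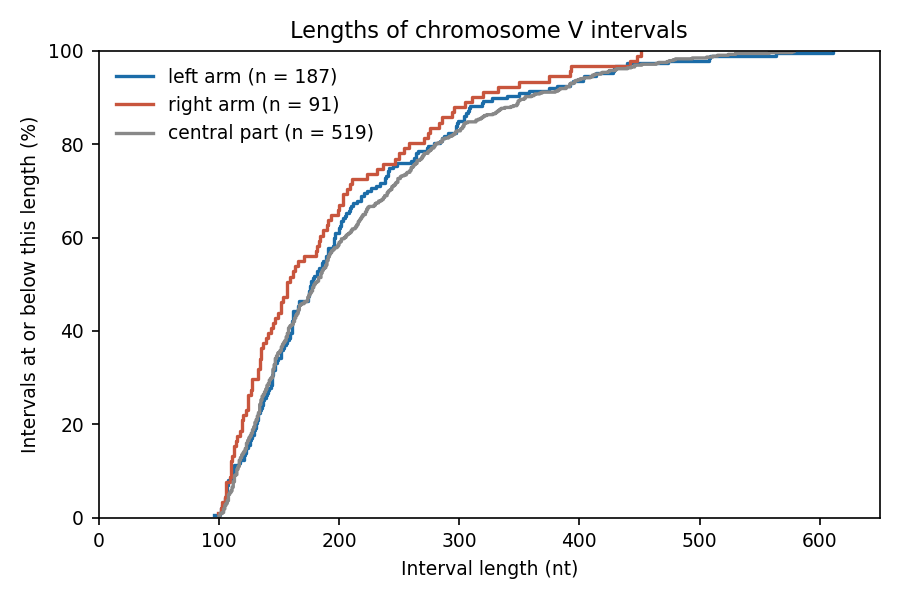
Cumulative share of intervals (vertical axis, %) at or below each length (horizontal axis, nt) for the left arm, the right arm and the central part of chromosome V. The right-arm line lies above the others around its median of 157 nt, while the left arm (median 177 nt) and the centre (180 nt) lie close together there.

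Most intervals lay at the 3′ end of 1 protein-coding gene, 150 of 187 on the left arm (80.2%, 73.8 to 85.7) and 65 of 91 on the right arm (71.4%, 61.0 to 80.4), against 76.9% in the centre. The strands were used about evenly, since 74 left intervals belonged to genes of the plus strand and 76 to genes of the minus strand, and 30 and 35 on the right. Of the named intervals, 118 on the left and 50 on the right had a stop codon that ended within 60 nt after their 5′ edge, as the fit of the numbering took for granted. The median of that distance, 32.5 nt on the left and 29 nt on the right arm, lies near the 32 nt that the fit assumed and is no independent measurement.

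The 3′ edges of these intervals, which had played no part in finding the numbering, fell near annotated transcript ends. On the left arm 79 of 118 lay within 20 nt of one (66.9%, 57.7 to 75.3) and 56 within 5 nt, and on the right arm 30 of 50 (60.0%, 45.2 to 73.6) and 23, against 63.9% within 20 nt in the centre. The median difference was 1 nt on each arm. The rest lay on either side. On the left 18 lay more than 20 nt upstream and 21 more than 20 nt downstream, and on the right 12 and 8. For 10 of the 21 left and 5 of the 8 right downstream ends, the nearest annotated model stopped at the stop codon itself. That model had no 3′ UTR, but another model of the same gene may have one. An annotated 3′ UTR was present in 141 of the 147 named left genes and 61 of the 63 named right ones.

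**Figure D3:**
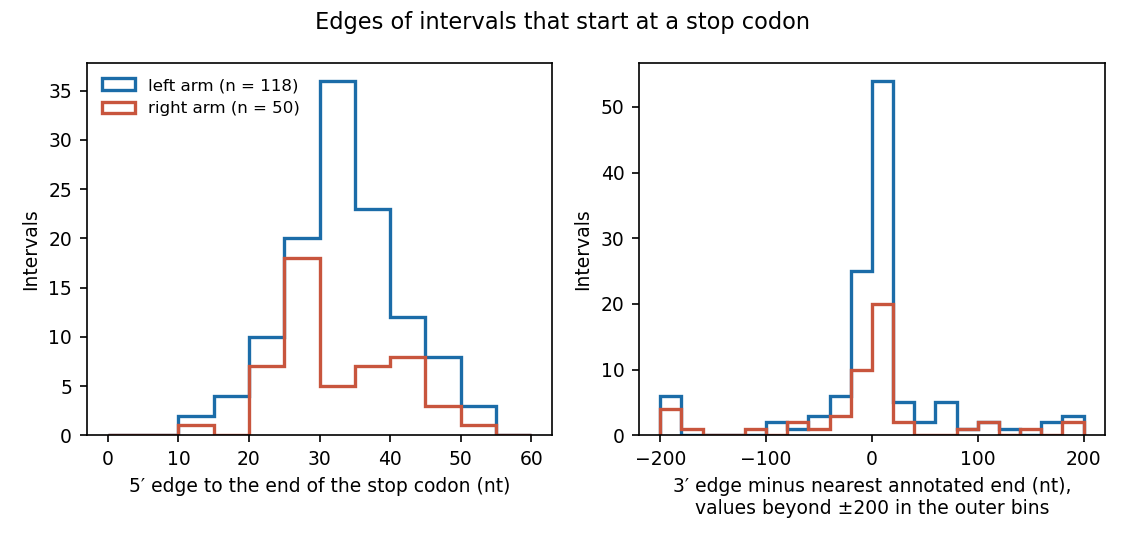
Intervals that start at a stop codon, left arm (118) and right arm (50). The first panel counts them by the distance in nt from the 5′ edge to the end of the stop codon, which the fit of the numbering had centred on 32 nt, and the second by the 3′ edge minus the nearest annotated transcript end in nt, where positive is downstream; the tallest bars stand beside 0.

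The stretch from the stop codon to the 3′ edge had a median of 134.5 nt on the left arm (124 to 157) and 134 nt on the right (104 to 172), against 146.5 nt in the centre (136 to 157). It ran from 53 to 573 nt on the left and from 53 to 420 nt on the right. It was under 100 nt in 28 of 118 left and 16 of 50 right intervals, and at least 300 nt in 12 and 5. Across genes whose nearest model had a 3′ UTR without an intron, the log2 lengths of the interval and of the model correlated with Pearson's r of 0.79 over 108 left and 0.55 over 43 right genes. These r values describe genes of 1 list, which are not replicates. The nearest model can have another stop codon than the interval, as in icl-1 (478 against 119 nt) and T20D4.19 (146 against 99 nt). Both lengths are then not those of the same 3′ UTR. In 6 left intervals and 1 right interval at least 10 nt after the stop codon was coding sequence of an annotated transcript, icl-1 and srh-217 being examples.

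**Figure D4:**
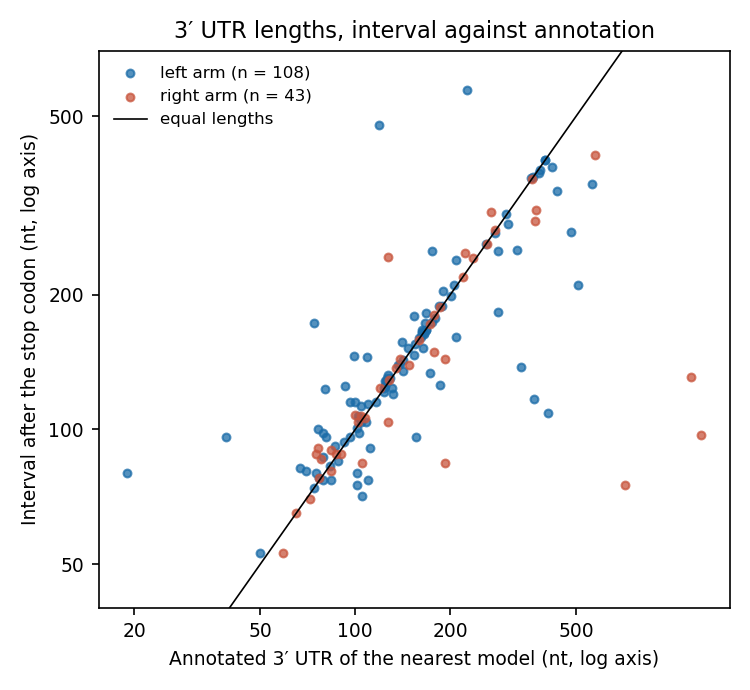
Length of the interval after the stop codon (vertical, nt, log axis) against the annotated 3′ UTR of the nearest model (horizontal, nt, log axis), 1 point per interval, for 108 left-arm and 43 right-arm intervals whose model has a 3′ UTR without an intron. Many points lie beside the line of equal lengths. The points far below it include mdt-17, algn-7 and dhs-24, and the highest point is glb-33 at 573 nt. Another mdt-17 model has an intron of 952 nt after the stop codon. For some points, such as icl-1, the nearest model has another stop codon than the interval.

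Of the left-arm intervals given to 1 gene, the longest was that of the globin gene glb-33 (1356332 to 1356942, 611 nt), and 573 nt of it followed the stop codon, 347 nt beyond the nearest annotated end. Of the 573 nt, 10 nt were coding sequence of an annotated transcript. icl-1, which encodes the glyoxylate cycle enzyme with isocitrate lyase and malate synthase activity, came next (724347 to 724855, 509 nt). Its annotation has more than 1 stop codon, the upstream one ended 31 nt into the interval, and the 3′ edge lay 8 nt short of an annotated end, so the 478 nt behind that stop codon include coding sequence of another form. phat-4 (4130388 to 4130895, 508 nt) and ketn-1, the gene of the sarcomere protein kettin (2782498 to 2782971, 474 nt), followed. The phat-4 interval held 390 nt of coding sequence and ended 3 nt beyond the annotated end. Y46H3C.7 (440 nt) ended 338 nt beyond its annotated end. Of these 5, only glb-33 and icl-1 had a stop codon that ended within 60 nt after the 5′ edge. The Y46H3C.7 model has a 3′ UTR of 103 nt, which places its stop codon just before the 5′ edge of the interval.

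The shortest left-arm interval was also the shortest of the whole list. It was given to Y47D7A.12 (4428930 to 4429025, 96 nt), with 53 nt after the stop codon and an end 3 nt beyond the annotated one. dod-19 had 102 nt, 65 nt of them past the stop codon, and cpr-5, a gene of a cathepsin B-like protease, had 103 nt, 85 nt of them past it. F08F3.10 with 105 nt and T06A1.5 with 106 nt completed the 5 shortest of those given to a gene, with 78 and 75 nt after the stop codon. In 3 of these 5 the end lay within 5 nt of the annotated one. T06A1.5 ended 26 nt upstream, and the nearest dod-19 model ends at its stop codon.

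The longest right-arm interval was that of C43D7.8 (19310206 to 19310656, 451 nt), with 410 nt after the stop codon and an end 165 nt upstream of the annotated one. rpl-2, a gene of the large ribosomal subunit, had 448 nt (20475749 to 20476196), of which 389 nt were coding, and ended 27 nt upstream. K10G4.10 had 442 nt (17274958 to 17275399), 420 nt of them past a stop codon at which the nearest annotated model ends. The interval of Y39B6A.1 (393 nt) and that of ttx-1, an OTX-type homeobox gene of the thermosensory neuron AFD (20049107 to 20049498, 392 nt), each ended 1 nt beyond the annotated end. In ttx-1 363 nt followed the stop codon.

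Among the 5 shortest right-arm intervals given to a gene were dhs-24, a short-chain dehydrogenase gene (19930795 to 19930893, 99 nt, 75 nt after the stop codon), and dct-16 (103 nt, 53 nt after it). fbxa-189, an F-box gene, and Y43F8C.7 had 106 nt each, with 70 and 84 nt after the stop codon, and C31G12.1 had 110 nt, with 81 nt, a length that ftr-1 and Y60A3A.19 shared. dct-16, fbxa-189 and C31G12.1 ended 6, 2 and 3 nt upstream of the annotated end. Y43F8C.7 ended 109 nt and dhs-24 639 nt upstream of it.

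Chemoreceptor genes, which encode seven-transmembrane receptors found mainly in sensory neurons, were the largest list on each arm and seldom had an interval. On the left arm 3 of 343 had one (0.875%, 0.181 to 2.53), on the right arm 1 of 119 (0.840%, 0.0213 to 4.59) and in the centre 5 of 430 (1.16%, 0.379 to 2.69), beside 10.7%, 8.34% and 13.7% of all genes there. The list also took every odr gene by symbol, not all of which encode receptors, and the central members included odr-2. The left members were srr-4 with 212 nt, srj-9 with 162 nt and srd-33 with 136 nt. In each of these 3 the 5′ edge lay at the stop codon and the 3′ edge lay downstream of the annotated end, by 99, 32 and 24 nt. The srd-33 interval also touched the 3′ end of T19H12.6 on the opposite strand. The right member, srh-217 (20188543 to 20188874, 332 nt), also covered the 3′ end of Y113G7B.27 on the opposite strand and ended 65 nt upstream of its own nearest annotated end. Members of these families resemble each other in sequence, and no source used here says how a read that matched several genes was placed.

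The counts by list leave out intervals that could be given to neither of a pair of genes, which touched nhr-70 on the right arm and lbp-9 and dnj-19 on the left. Genes whose only interval held coding sequence and lay at no 3′ end are left out too. Examples are asp-1 and dpy-21 on the right arm and lipl-5 and tnt-4 on the left. Nuclear receptor genes, a family of ligand-regulated transcription factors that is large in this worm, gave 2 of 77 on the left arm (2.60%, 0.316 to 9.07), 0 of 12 on the right arm (upper bound 26.5%, with nhr-70 left out as ambiguous) and 2 of 78 in the centre (2.56%). The left members were alike in length. The nhr-142 interval ran 145 nt past the stop codon (177 nt in all) and the nhr-204 interval 140 nt (176 nt). Their ends lay 36 and 1 nt beyond the annotated ones. Genes of ubiquitin ligase adaptors (F-box, MATH, BTB and Skp1 families) gave 2 of 9 on the left arm (22.2%, 2.81 to 60.0), 4 of 47 on the right (8.51%, 2.37 to 20.4) and 2 of 40 in the centre (5%, 0.611 to 16.9). The left ones were fbxa-65 (166 nt, 132 nt after the stop codon) and fbxb-72 (152 nt, 115 nt). On the right, skr-4, a Skp1-related gene, had 200 nt with an end 0 nt from the annotated one. fbxa-188 with 143 nt, fbxb-116 with 133 nt and fbxa-189 were shorter.

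**Figure D5:**
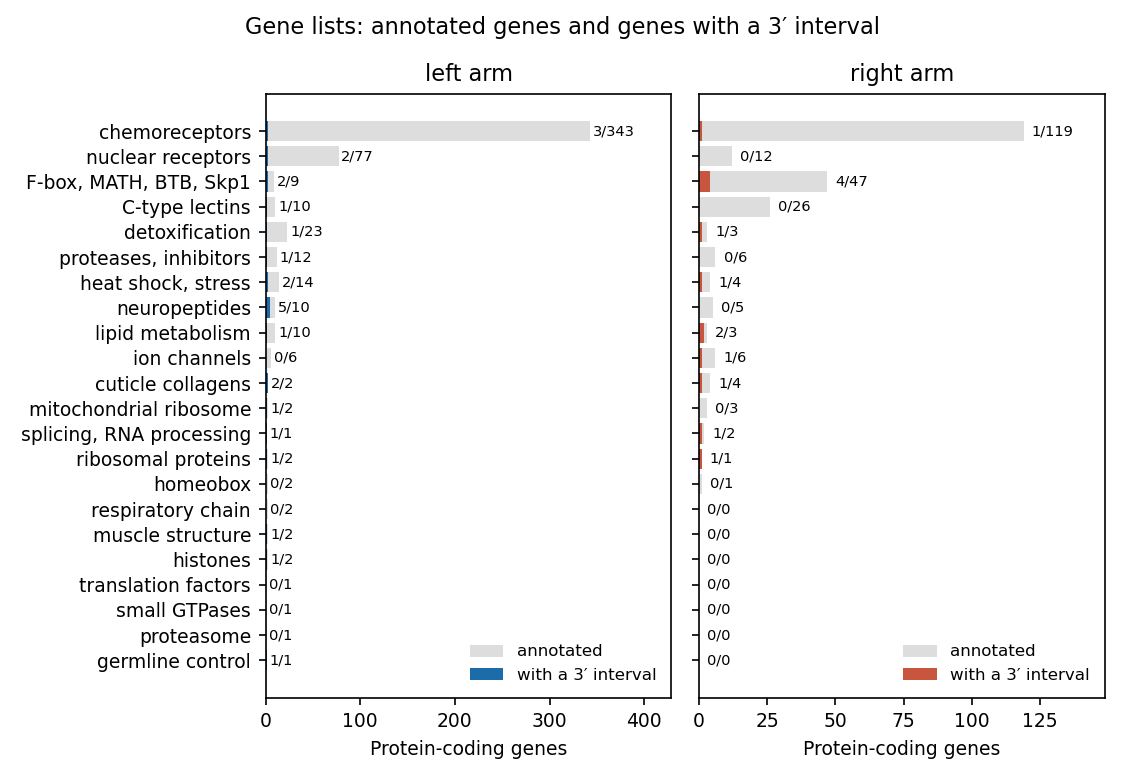
Annotated protein-coding genes (grey bars) and those with an interval at their 3′ end (coloured bars) in each gene list, left and right arm, with both numbers beside each bar; horizontal axes count genes and differ in scale. Chemoreceptors are the longest grey bars with 3 of 343 and 1 of 119 genes, while 5 of 10 neuropeptide genes of the left arm have an interval.

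Neuropeptide and insulin-like genes gave 5 of 10 on the left arm (50%, 18.7 to 81.3), 0 of 5 on the right (upper bound 52.2%) and 2 of 9 in the centre. In 4 of the 5 left members the genes are neighbours, nlp-28 to nlp-31, of a cluster whose peptides are known as antimicrobial peptides of the epidermis. Their intervals lay between 3980477 and 3988302. They measured 133 nt in nlp-28, 145 nt in nlp-29, 126 nt in nlp-30 and 144 nt in nlp-31. After the stop codon they had 106, 114, 107 and 115 nt, a range of 9 nt, all within the arm's middle 50% of 101.75 to 181.25 nt. Their ends lay 3, 4, 5 and 15 nt beyond the annotated ones. The fifth, nlp-13, had 287 nt with 251 nt after the stop codon, and its end lay 73 nt upstream of the annotated end.

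The lists of ribosomal, collagen and RNA processing genes were short on the arms. Ribosomal protein genes had an interval in 1 of 2 on the left arm and 1 of 1 on the right. rps-27 (167 nt, 123 nt coding) and rpl-2 both started in coding sequence over 60 nt before the stop codon and ended 34 and 27 nt upstream of the annotated end. Cuticle collagen and body-shape genes gave 2 of 2 on the left arm and 1 of 4 on the right. The collagen genes col-139 (274 nt) and col-140 (306 nt) held 230 and 262 nt of coding sequence and ended 6 nt upstream and 2 nt downstream of the annotated ends, with annotated 3′ UTRs of 47 and 39 nt. In the right arm's lon-8, a body-length gene, 144 nt followed the stop codon. Of the splicing and RNA processing list, prp-39 (309 nt, 275 nt after the stop codon, 1 of 1 on the left) and prp-6 (157 nt, 129 nt, 1 of 2 on the right) ended 1 nt upstream and 1 nt downstream of the annotated ends. mrpl-48, of the mitochondrial ribosome, had 123 nt after the stop codon (1 of 2 on the left, 0 of 3 on the right).

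The stress and immunity list, matched by symbol, gave 2 of 14 on the left arm and 1 of 4 on the right. The right member, dnj-25, was taken with all dnj genes, whatever their role. hsp-6, which encodes the mitochondrial Hsp70 chaperone, had 308 nt (4824312 to 4824619) with 276 nt after the stop codon, and its end lay 205 nt upstream of the annotated one. A further interval of 113 nt lay inside its coding sequence, 232 nt before the stop codon. cnc-4, a caenacin antimicrobial peptide gene, had 152 nt after the stop codon, and dnj-25 on the right arm had 158 nt although its nearest model ends at the stop codon. Lipid metabolism genes gave 1 of 10 on the left arm (acs-3, an acyl-CoA synthetase gene, 125 nt after the stop codon) and 2 of 3 on the right (acs-12 with an interval of 147 nt, and dhs-24). The detoxification list gave 1 of 23 on the left and 1 of 3 on the right. The left member, the glucuronosyltransferase gene ugt-29, had 350 nt with 214 nt coding and an end 2 nt upstream. The right member, sdz-6, had 139 nt after the stop codon. It was listed by its symbol alone, which names no family of detoxification enzymes. C-type lectin genes gave 1 of 10 on the left (clec-1, 189 nt after the stop codon and an end 1 nt downstream) and 0 of 26 on the right (upper bound 13.2%).

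Protease and inhibitor genes gave 1 of 12 on the left (cpr-5) and 0 of 6 on the right, where asp-1 had an interval with coding sequence and at no 3′ end. unc-60, which encodes ADF/cofilin proteins of actin filaments, was 1 of 2 listed muscle genes on the left arm, with 210 nt after the stop codon and an end 5 nt downstream. pgl-3, a gene of germline P granules, was the only listed germline gene of the arms (182 nt, end 14 nt downstream). hil-4, a linker histone gene, was 1 of 2 listed histone genes (179 nt, end 26 nt downstream). Of the ion channel list, twk-46, a potassium channel gene, had 104 nt after the stop codon (1 of 6 on the right, 0 of 6 on the left). Listed homeobox genes gave 0 of 2 on the left and 0 of 1 on the right, but the list, matched by symbol, was incomplete. The homeobox genes ttx-1 on the right and unc-62 on the left were not on it, and each had an interval at its 3′ end. The remaining lists gave 0 of 2 respiratory chain genes and 0 of 1 each for translation factor, proteasome and small GTPase genes, all on the left arm.

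Among intervals with the 5′ edge at a stop codon, 4 of the 5 ends furthest downstream of an annotated one on each arm belonged to genes whose nearest model has no 3′ UTR, the others being glb-33 and zhp-4. On the left arm the genes with such a model were Y5H2B.3 (243 nt), gid-7 (189 nt), the calmodulin gene cmd-1 (173 nt) and Y46H3C.5 (166 nt). On the right arm they were K10G4.10 (420 nt), the GINS replication complex gene sld-5 (213 nt), dnj-25 (158 nt) and emb-4 (101 nt). These lengths run past the stop codon at which the nearest model ends, and other models were not considered in the ranking. For cmd-1, which has 1 annotated stop codon, another model has a 3′ UTR of 997 nt. The cmd-1 end therefore lies inside an annotated 3′ UTR. Among named intervals without a stop codon that ended within 60 nt after the 5′ edge, Y46H3C.7 (left) and F53H2.3 (right) ended 338 and 384 nt downstream. zhp-4, a meiotic RING finger gene, had 242 nt after the stop codon against an annotated 127 nt. Far upstream ends of left-arm intervals at a stop codon belonged to pqn-13 (109 nt against an annotated 407 nt), rga-3 (210 against 506 nt), C52A10.3 (117 against 368 nt), B0238.9 (353 against 560 nt) and hsp-6 (276 against 481 nt). A further rga-3 interval, described below, ended 1 nt upstream of the annotated end. On the right arm algn-7 had 97 nt against an annotated 1243 nt and dhs-24 had 75 against 714 nt. The interval of Y60A3A.19 started at a stop codon 1768 nt before the nearest annotated end, which belongs to a model with another stop codon, and ended 88 nt after its own.

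Separate intervals gave more than 1 end for 3 of 147 named genes on the left arm (2.04%, 0.423 to 5.85). On the right arm they did so for 2 of 63 (3.17%, 0.387 to 11.002) and in the centre for 5 of 394 (1.27%, 0.413 to 2.94). Overlapping forms cannot be counted in this list, so these shares do not show how common several ends per gene are. The right-arm gene Y69H2.3 has 2 annotated stop codons and had an interval for each (18656066 to 18656224 and 18659554 to 18659687). They ended 9 and 1 nt upstream of annotated ends, and the ends lay 3488 nt apart. mdt-17, a Mediator subunit gene, had 1 interval with its 5′ edge at the stop codon, which ran 131 nt past it (20247227 to 20247383), and another at its annotated end, 4 nt upstream (20246207 to 20246389). Between them lay 837 nt, and 1 of its models has an intron of 952 nt after the stop codon. The facing edge of the interval near the annotated end lay 1 nt from an annotated exon edge, and that of the interval at the stop codon lay 116 nt from the nearest one.

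On the left arm the intervals of rga-3 (5721536 to 5721776 and 5721827 to 5722071) left 50 nt between them in a 3′ UTR annotated without an intron, and the second ended 1 nt upstream of the annotated end. Those of cmd-1 (1157166 to 1157366 and 1157555 to 1157710) left 188 nt, again without an annotated intron, and the second ended 480 nt upstream of the annotated end. In Y108G3AL.2 (172871 to 173190 and 176671 to 176831) neither interval lay at the stop codon. The first ended 4 nt upstream of an annotated transcript end and the second 7 nt downstream of another, and the ends lay 3641 nt apart. The second also started 9 nt from an annotated exon edge, and the longest model has an intron of 5322 nt after the stop codon. Forms of different length that share a stop codon would overlap, and no intervals of the chromosome overlap, so such forms cannot be counted in this list.

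A further 47 named intervals, 32 on the left and 15 on the right arm, had no stop codon that ended within 60 nt after the 5′ edge. Some, such as that of Y46H3C.7, began just after the stop codon. Of the 47, 28 held at least 50 nt of coding sequence and 19 held none. Their 3′ edges had not entered the numbering either, and 20 of the 32 left ones (62.5%, 43.7 to 78.9) and 7 of the 15 right ones (46.7%, 21.3 to 73.4) lay within 20 nt of an annotated end. In the centre this was 37 of 61 (60.7%, 47.3 to 72.9).

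Intervals that touched 3′ ends on both strands numbered 21 on the left arm (11.2%, 7.09 to 16.7) and 6 on the right (6.59%, 2.46 to 13.8), against 76 in the centre (14.6%, 11.7 to 17.98). In 7 of the left and 2 of the right ones, each edge lay at the stop codon of a different gene, so that the interval could be given to neither. The longest of these 9 ran between F33E11.2 and F33E11.3 (299826 to 300389, 564 nt). Others ran between the amine oxidase gene amx-3 and unc-80, a gene of the NALCN channel complex (20894090 to 20894394, 305 nt), between Y45G12B.3 and kel-8 (2688336 to 2688639, 304 nt), and between Y69H2.1 and nhr-70 (18619979 to 18620201, 223 nt). Where only 1 gene had its stop codon at an edge, the longest were those of mlk-1, a gene of a mixed-lineage kinase (428 nt, end 1 nt upstream of the annotated one), srh-217, rips-1 (284 nt, end 75 nt downstream) and acy-4, an adenylyl cyclase gene (273 nt, end 30 nt downstream). The strand column of the list holds + in every row, so the outer edge of such an interval may belong to the other gene.

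Intervals that held at least 10 nt of coding sequence and lay at no 3′ end made up 21 of 187 on the left arm (11.2%, 7.09 to 16.7), 19 of 91 on the right arm (20.9%, 13.1 to 30.7) and 84 of 519 in the centre (16.2%, 13.1 to 19.6). They were coding along their whole length in 9 of the 21 left, 9 of the 19 right and 59 of the 84 central ones, and the least coding sequence was 27 nt of 133 nt, over tnt-4. On the left 11 of 20 with a stop codon ahead lay at most 500 nt before it, and the median was 372.5 nt. On the right this held for 4 of 18, and the median was 3933 nt. These distances are genomic and include introns. ketn-1 held 2 on the left arm, 2767 and 17687 nt before its stop codon. tgt-2, a tRNA-guanine transglycosylase subunit gene, held 2 on the right arm (962 and 139 nt before), as did pro-3 (9920 and 11853 nt). Further right-arm examples, chosen after their values were seen, were pha-4, the FoxA gene of pharynx development (294 nt, fully coding, 1926 nt before the stop codon), and dpy-21, a dosage compensation gene (109 nt, fully coding, 7833 nt). In 10 of the 21 left and 6 of the 19 right ones, the same gene also had an interval at its 3′ end.

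The other 14 intervals lay at neither, 9 on the left and 5 on the right arm. Annotated pseudogenes were overlapped by 7 of the 9 left ones and 1 of the 5 right ones, against 6 of 13 in the centre. The annotation holds 180 pseudogenes on the left arm, 305 on the right and 382 in the centre. The left intervals that start at 4300963 and 4310467 lay in the same pseudogene, and the second also touched a noncoding RNA gene and a tRNA gene. Only 31 of 138 nt overlapped at 2038087, 25 of 187 nt at 5473105 and, on the right arm, 26 of 106 nt. On the right arm 1 interval of 375 nt (18724709 to 18725083) lay over the noncoding RNA gene Y17D7C.9 along 374 nt. Another of 166 nt (18736725 to 18736890) overlapped ZK384.7, also a noncoding RNA gene, and the microRNA gene mir-262 on the opposite strand. One more lay inside kcnl-1, a potassium channel gene, outside its coding sequence (19568868 to 19568990, 123 nt), and the last lay between genes (19959822 to 19959940). The remaining 2 left intervals lay between genes as well, with 105 and 113 nt.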

How the data were processed

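The deposited file is a BED list of intervals in nt without a header. Its score column, as deposited by the authors, holds 0 in each row and was not used. Nothing used here states the read assembly, aligner, filters or build. The annotation was Ensembl release 115. Genes, lists and arms were chosen with earlier results of these data known.

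The offset between both numberings was modelled over chromosome V as a constant with steps, by dynamic programming on 5′ edges near stop codons (expected distance 32 nt, SD 8 nt, step penalty 8 log units). A gene was assigned where its stop codon ended within 60 nt after the 5′ edge, or where 10 nt or more of stop codon plus 3′ UTR were covered. Among several candidates, the one with its stop codon at an edge was taken if it was the only one. Ends at most 20 nt apart were joined. The functions were tested on simulated intervals.

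Genes of the 22 lists were matched by symbol. Named for each arm were the 5 longest and 5 shortest given to a gene (ties by position), those with several intervals, the 5 furthest ends either way among intervals at a stop codon, the 5 longest intervals over both strands, the genes with most coding intervals, the longest and shortest of each list and the genes beside the large step. Other members of lists, and the intervals outside genes, were named after their values were seen. Shares have Clopper-Pearson intervals and medians order-statistic intervals at 95% (scipy 1.17.1, Python 3.11.15). Alternatives changed the numbering, the arm limits and each distance. Poly(A) signals had been planned and were not analysed here, for want of a genome.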

Additional observations from a re-analysis of the deposited data

How the results depend on the processing

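Of 240 values recomputed for the arms under alternatives, 221 stayed within the interval of the value reported, within 1.5 times a count or within 8 nt of an offset. These held every value under the 4 other ways of finding the numbering, under limits of 5 and 18 Mb and under other overlaps and edge distances, as well as 2 alternatives chosen after seeing the data (without intervals that had coding sequence after the stop codon, and without models that have no 3′ UTR). Without correcting the numbering, the right arm had 36.3% of intervals at the 3′ end of a gene, 4.24% of genes with an interval, 7 listed genes, 34.1% of intervals with coding sequence and at no 3′ end and 2.20% over both strands. The median after the stop codon was then 285 nt and 0% of ends lay within 20 nt, over 5 intervals. With naming by stop codons at the 5′ edge alone, 63.1% of left and 54.9% of right intervals were at a 3′ end, 8.61% of left genes had one, and 0% of genes on the left and 0% on the right had more than 1 end. Those with coding sequence and at no 3′ end were then 21.9% on the left, and those over both strands 3.74% on the left and 2.20% on the right. With tolerances of 10 and 50 nt, 55.9% and 78.0% of left ends lay near an annotated one. Neighbours closer than 200 nt numbered 4 on the left and 2 on the right, against 10 on the left under 500 nt and 0 on the right under 100 nt. No paired analysis was possible because there is 1 list. The poly(A) signal counts were not run. Depth is unknown, and genes or intervals limit the precision.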
